A study of Mus musculus with 14 samples.

Results

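The genes described here are 9 genes that were strongly lowered in mouse heart nuclei from animals given YAP5SA: Phf24, Rxfp1, Gal3st2c, Rnft2, Bcl11b, Rbp7, Ttc39a, Abcb4 and Atp2b2. They were chosen by their measured RNA levels, as the largest falls in libraries that received YAP5SA over comparisons of the 4 groups, and are 9 of 54446 genes in the table. All 9 were among the 17987 genes with enough counts to be tested. The values that chose them are the 4 comparisons of a group with YAP5SA against a group without it, so these are given as a description with no test.

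RNA came from heart nuclei of ICR mice, an outbred strain, enriched with PCM1, a protein at the nuclei of cardiomyocytes. Adeno-associated virus AAV9 was injected into the peritoneum at postnatal day 7, at 1E11 genome copies per virus, and hearts were taken at postnatal day 12. The YAP5SA group (3 libraries) got a YAP variant with Hippo target serines changed to alanine, the MEF2A group (4 libraries) got human MEF2A, and the group here called YAP5SA_MEF2A (2 libraries) got both viruses. Each transgene was driven by the cardiac troponin T promoter, which is active in cardiomyocytes, and the 5 Control libraries came from mice without virus, so comparisons with Control include any effect of virus itself. The labels do not say whether each library is a separate animal, and p-values then cover only the spread among the libraries, some of which may be technical. By batch, the first had 2 libraries per group and batch 2 had 3 Control, 2 MEF2A and 1 YAP5SA library. Thus both YAP5SA_MEF2A libraries were in batch 1, and Control 1 and Control 2 were the Controls of batch 1.

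Libraries held 16171068 to 24027622 counts. Transcripts of the mitochondrial chromosome took 60.7% and 67.5% of counts in Control 1 and Control 2, 32.2% in YAP5SA 3 and 3.80% to 23.2% in the other 11 libraries. Every difference from Control within batch 1 therefore rests on the 2 Controls with the highest mitochondrial share. Without them YAP5SA_MEF2A against Control moved from -2.06 to -3.33 for Bcl11b, from -2.38 to -3.36 for Rxfp1 and from -2.75 to -1.28 for Rbp7 on the log2 scale. Cardiomyocyte markers were high in all 14 libraries, at a summed 53352 to 87456 CPM (counts of a gene scaled to a common library size) over 12 genes in Control, 84446 to 87171 in MEF2A, 30544 to 41916 in YAP5SA and 40964 to 45485 in YAP5SA_MEF2A. The 5 libraries with YAP5SA thus lay below the 9 others in these markers, and the part of this in the levels below was not tested. In bulk RNA, fewer cells of a type and less RNA per cell cannot be told apart. Mouse Yap1 ran from 49.9 to 77.3 CPM in Control and from 39.3 to 76.3 CPM in YAP5SA. Mef2a ran from 510 to 607 CPM in Control and from 570 to 623 CPM in MEF2A. Neither value checks the labels, since reads of the transgenes may be missing from the mouse gene counts.

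YAP is a transcriptional coactivator at the end of the Hippo pathway. It reaches DNA mainly through TEAD factors, and in the heart it is known for promoting growth and division of cardiomyocytes. MEF2A is a transcription factor of muscle genes that binds an AT-rich motif. The 9 genes belong to no single pathway. Rxfp1 is a receptor, Abcb4 and Atp2b2 are membrane transporters, Gal3st2c and Rnft2 are enzymes, Rbp7 carries retinol inside cells, Bcl11b is a transcription factor, Phf24 interacts with inhibitory G proteins, and Ttc39a is a tetratricopeptide repeat protein.

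Promoter sequence is shown for the 3 genes with a match to the letters searched for these factors, since the 9 genes were low together. RefSeq windows on GRCm38.p6, from 250 bases before to 50 bases after a start site, were matched by symbol for 8 of the 9 genes, with 12 windows in all. GGAATG, the TEAD motif, was searched on both strands (CATTCC on the other) and found in 2 of 12 windows (16.7%), against 14.7% of all 32851 windows. For MEF2, a loose pattern was searched, CTA, then 4 bases of any kind, then TAG, which does not require an AT-rich middle. It was found in 1 of 12 (8.33%), against 3.69% of all windows. The 250 bases before the start site follow, 5′ to 3′ on the gene's strand, with matched letters in capitals. A match is a run of letters and not a known site.
Phf24, chr4:42916356-42916605, plus strand: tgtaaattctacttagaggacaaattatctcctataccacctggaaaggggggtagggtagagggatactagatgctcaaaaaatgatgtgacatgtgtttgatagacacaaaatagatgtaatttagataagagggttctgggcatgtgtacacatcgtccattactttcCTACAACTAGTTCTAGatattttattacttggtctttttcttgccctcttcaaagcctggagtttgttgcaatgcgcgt
Ttc39a, chr4:109415397-109415646, plus strand: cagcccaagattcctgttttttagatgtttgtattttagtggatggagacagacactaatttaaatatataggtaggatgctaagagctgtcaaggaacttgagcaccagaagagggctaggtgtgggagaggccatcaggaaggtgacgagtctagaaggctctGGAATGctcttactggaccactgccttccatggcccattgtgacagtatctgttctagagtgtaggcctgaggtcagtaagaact
Atp2b2, chr6:114042081-114042330, minus strand: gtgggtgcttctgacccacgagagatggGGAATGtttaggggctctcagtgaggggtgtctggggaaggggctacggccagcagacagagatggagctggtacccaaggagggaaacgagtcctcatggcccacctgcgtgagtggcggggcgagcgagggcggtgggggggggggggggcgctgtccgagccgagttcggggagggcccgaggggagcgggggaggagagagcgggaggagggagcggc
Phf24 held 2 overlapping matches to the loose MEF2 pattern, starting at positions -79 and -73 from 1 of its start sites. Their middle bases, CAAC and GTTC, are not all A or T, so neither is an AT-rich motif. Ttc39a held 1 TEAD match starting at -85 from a RefSeq start site. That window lies inside the gene as annotated by GENCODE, which begins at 109406623. Atp2b2 held 1 starting at -222 from the first of its 3 start sites. The windows with matches differed in base composition, with 40.7% G and C in Phf24, 47.0% in Ttc39a and 72.7% in Atp2b2. The median over all windows was 52.7%. Another start site of Phf24 had a window of 84.7% G and C with no match of either kind.

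In 5 of the genes (Phf24, Rxfp1, Rnft2, Ttc39a and Atp2b2) all 5 libraries with YAP5SA lay below all 9 without it. The same separation was seen in 2.92% of all genes tested. The choice of the genes used these levels, so nothing is read from the count.

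Phf24 encodes a protein, also called GINIP, that binds inhibitory G protein alpha subunits in neurons (ENSMUSG00000036062, GRCm38 chromosome 4, 42916660 to 42944752). It had 118, 82.9, 73.8, 138 and 128 CPM in Control 1 to 5 and 90.8, 105, 91.0 and 112 CPM in MEF2A 1 to 4. It had 15.6, 9.64 and 7.02 CPM in YAP5SA 1 to 3 and 14.3 and 18.1 CPM in YAP5SA_MEF2A 1 and 2. Every library with YAP5SA was low, and the highest of them lay 4.07 times below the lowest library without it, the widest such gap of the 9 genes. Group means were 108 ± 28.2 CPM (SD, n = 5) for Control, 99.8 ± 10.6 (n = 4) for MEF2A, 10.8 ± 4.40 (n = 3) for YAP5SA and 16.2 ± 2.70 (n = 2) for YAP5SA_MEF2A. Control and MEF2A overlapped, as did YAP5SA and YAP5SA_MEF2A. The fitted log2 fold change was -3.36 ± 0.30 (SE) in YAP5SA against Control, a level 10.3 times lower, and -2.79 ± 0.35 in YAP5SA_MEF2A against Control. It was -3.04 ± 0.30 within batch 1 and -4.01 ± 0.42 within batch 2.

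Rxfp1, the receptor of the hormone relaxin, signals through cyclic AMP and lies on chromosome 3 (ENSMUSG00000034009, 79641611 to 79737880). Its levels were 102, 82.7, 81.9, 159 and 112 CPM in Control 1 to 5 and 75.3, 156, 95.1 and 48.7 CPM in MEF2A 1 to 4. They were 12.9, 26.9 and 3.91 CPM in YAP5SA 1 to 3 and 23.2 and 30.9 CPM in YAP5SA_MEF2A 1 and 2. The lowest MEF2A library was nearest to the libraries with YAP5SA, 1.58 times above the highest of them. The YAP5SA libraries were spread widely among themselves, at 14.6 ± 11.6 CPM (SD, n = 3), beside 107 ± 31.4 for the 5 Controls, 93.7 ± 45.4 for the 4 MEF2A and 27.0 ± 5.48 for the 2 YAP5SA_MEF2A libraries. YAP5SA and YAP5SA_MEF2A overlapped. The log2 fold change was -3.20 ± 0.59 in YAP5SA against Control and -2.38 ± 0.68 in YAP5SA_MEF2A against Control. Within batch 1 YAP5SA was lower than Control by -2.26 ± 0.42 and within batch 2, where YAP5SA has 1 library, by -4.91 ± 0.61.

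Rnft2 encodes a RING finger membrane protein with ubiquitin ligase activity (ENSMUSG00000032850, chromosome 5, 118190736 to 118245116). It was at 36.3, 28.2, 24.9, 52.6 and 55.1 CPM in Control 1 to 5 and at 24.1, 67.2, 52.8 and 32.8 CPM in MEF2A 1 to 4. In YAP5SA 1 to 3 it was at 1.68, 7.05 and 4.81 CPM, and in YAP5SA_MEF2A 1 and 2 at 6.86 and 5.19 CPM. The libraries with YAP5SA lay at least 3.42 times below the lowest other library, and the 2 groups with YAP5SA overlapped. Means were 39.4 ± 13.9 CPM (SD, n = 5) for Control, 44.2 ± 19.5 (n = 4) for MEF2A, 4.51 ± 2.69 (n = 3) for YAP5SA and 6.03 ± 1.18 (n = 2) for YAP5SA_MEF2A. The difference from Control was -3.07 ± 0.50 on the log2 scale in YAP5SA and -2.58 ± 0.60 in YAP5SA_MEF2A. Its size was alike within batch 1 (-2.93 ± 0.67) and within batch 2 (-3.20 ± 0.56).

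Ttc39a, a tetratricopeptide repeat gene on chromosome 4 (ENSMUSG00000028555, 109406623 to 109444745), had 49.7, 32.1, 38.2, 55.2 and 40.4 CPM in Control 1 to 5. MEF2A 1 to 4 had 31.4, 41.1, 37.2 and 25.2 CPM. YAP5SA 1 to 3 had 4.38, 14.005 and 4.66 CPM, and YAP5SA_MEF2A 1 and 2 had 7.60 and 10.2 CPM. YAP5SA 2 was the highest of the 3 YAP5SA libraries, as it was for Rxfp1, Rnft2, Gal3st2c and Bcl11b. Means were 43.1 ± 9.24 CPM (SD, n = 5) for Control, 33.7 ± 6.94 (n = 4) for MEF2A, 7.68 ± 5.48 (n = 3) for YAP5SA and 8.91 ± 1.85 (n = 2) for YAP5SA_MEF2A. Log2 fold changes against Control were -2.58 ± 0.38 in YAP5SA and -2.42 ± 0.45 in YAP5SA_MEF2A, and those of YAP5SA were -2.20 ± 0.50 within batch 1 and -3.26 ± 0.41 within batch 2.

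Atp2b2 encodes a plasma membrane calcium pump best known from neurons and the hair cells of the ear (ENSMUSG00000030302, chromosome 6, 113743831 to 114042613). It was the lowest of the 9 per length, at 0.324 ± 0.102 CPM per kb of exon in Control (SD, n = 5). It had 4.65, 2.09, 3.55, 5.28 and 4.89 CPM in Control 1 to 5, 2.89, 7.49, 8.21 and 7.72 CPM in MEF2A 1 to 4, 1.29, 1.45 and 1.85 CPM in YAP5SA 1 to 3 and 0.737 and 0.487 CPM in YAP5SA_MEF2A 1 and 2. The order of group means was MEF2A, Control, YAP5SA and YAP5SA_MEF2A, and YAP5SA_MEF2A did not overlap YAP5SA, while MEF2A 1 lay within the Controls. The gap to the lowest library without YAP5SA was only 1.13 times. The log2 fold change was -1.28 ± 0.47 in YAP5SA and -2.41 ± 0.61 in YAP5SA_MEF2A against Control, and -1.996 ± 0.49 and -3.13 ± 0.63 against MEF2A. The antisense genes, Gm15082 and Gm15083 overlap it, and without strand its counts may include theirs.

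**Figure D1:**
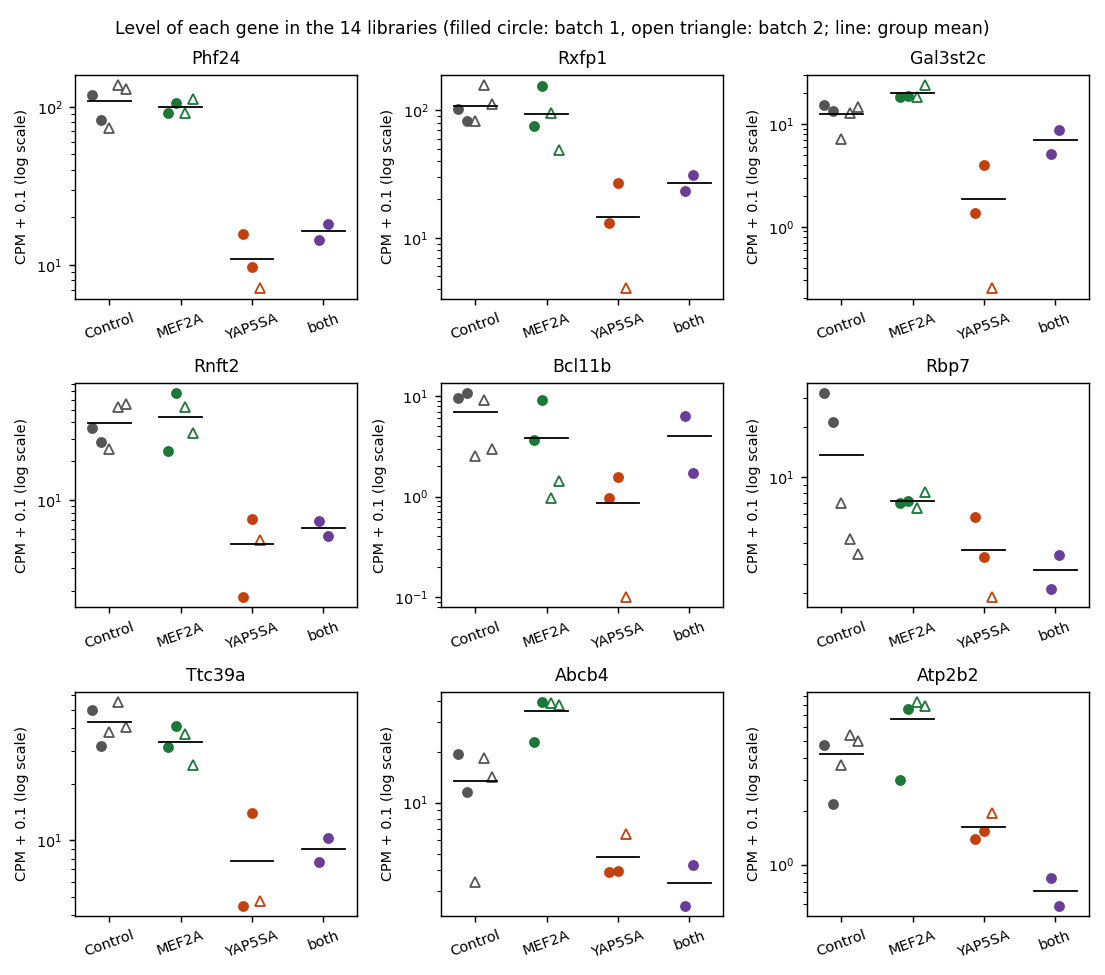
Levels of the 9 genes in each of the 14 libraries, as CPM + 0.1 on a log axis, by group, with batch 1 as filled circles, batch 2 as open triangles and the group mean as a line ("both" is YAP5SA_MEF2A). In Phf24, Rxfp1, Rnft2, Ttc39a and Atp2b2 all 5 libraries with YAP5SA lie below the 9 others, and in Gal3st2c, Bcl11b, Rbp7 and Abcb4 they overlap.

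In the 4 other genes, libraries with and without YAP5SA overlapped. Gal3st2c is a member of a family of enzymes that add sulfate to galactose (ENSMUSG00000073608, chromosome 1, 93990509 to 94017147). It had 15.2, 13.3, 7.06, 12.7 and 14.6 CPM in Control 1 to 5, 18.2, 18.9, 18.5 and 24.1 CPM in MEF2A 1 to 4, 1.25, 3.88 and 0.150 CPM in YAP5SA 1 to 3 and 5.04 and 8.76 CPM in YAP5SA_MEF2A 1 and 2. The value of YAP5SA 3 rests on 3 counts. Groups stood in the order MEF2A (19.9 ± 2.82 CPM, SD, n = 4), Control (12.6 ± 3.24, n = 5), YAP5SA_MEF2A (6.90 ± 2.63, n = 2) and YAP5SA (1.76 ± 1.91, n = 3), and only YAP5SA_MEF2A 2 and Control 3 overlapped between neighbours in that order. The log2 fold change in YAP5SA against Control was -3.10 ± 0.65, and -2.52 ± 0.53 within batch 1. It was -1.96 ± 0.65 without Control 1, Control 2 and YAP5SA 3. Of its exon words of 75 bases, 7.79% also occur in Gal3st2b and 6.88% in Gal3st2, so a part of its reads could be shared with these near copies.

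Bcl11b encodes a zinc finger factor known for T cell and neuron development, which works with the NuRD and BAF chromatin complexes (ENSMUSG00000048251, chromosome 12, 107910403 to 108003602). It varied widely in every group, with 9.41, 10.6, 2.45, 9.04 and 2.89 CPM in Control 1 to 5 and 3.59, 8.99, 0.864 and 1.34 CPM in MEF2A 1 to 4. YAP5SA 1 and 2 had 0.860 and 1.45 CPM, YAP5SA 3 had 0 counts, and YAP5SA_MEF2A 1 and 2 had 6.21 and 1.62 CPM. The YAP5SA libraries lay below all Controls, and of the YAP5SA_MEF2A libraries 1 lay among the Controls and the other between them and YAP5SA. Its log2 fold change of -4.19 ± 0.86 in YAP5SA against Control was the most negative of the 9, beside -2.06 ± 0.92 in YAP5SA_MEF2A against Control and -0.50 ± 0.83 in YAP5SA_MEF2A against MEF2A. Within batch 1 YAP5SA against Control was -3.15 ± 0.74. In batch 2 the single YAP5SA library was at 0, and with 3 counts taken as the limit that a count of 0 allows (0.150 CPM, counting error only) it lay at least 31.9-fold lower than the mean of the batch 2 Controls, 4.79 CPM.

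Rbp7, a retinol-binding protein known from the endothelium of small vessels, lies on chromosome 4 (ENSMUSG00000028996, 149449687 to 149454978). It had 31.7 and 21.4 CPM in Control 1 and 2 and 6.85, 4.17 and 3.35 CPM in Control 3, 4 and 5. MEF2A 1 to 4 had 6.91, 7.11, 6.38 and 8.02 CPM, YAP5SA 1 to 3 had 5.63, 3.21 and 1.80 CPM, and YAP5SA_MEF2A 1 and 2 had 2.02 and 3.33 CPM. Control 1 and 2 stood apart from the 12 other libraries, and the other Controls overlapped YAP5SA. The log2 fold change in YAP5SA against Control was -2.001 ± 0.50 with all libraries, -0.78 ± 0.54 without Control 1 and Control 2, and -0.07 ± 0.63 without these and YAP5SA 3. Within batch 1 it was -2.63 ± 0.42 and within batch 2 -1.41 ± 0.69. The size of the difference from Control thus moved with Control 1 and 2. All 4 MEF2A libraries lay above all 5 with YAP5SA. These groups took part in the choice and the share of all genes so separated was not counted, so nothing is read from this separation. The log2 fold change against MEF2A was -1.50 ± 0.52 in YAP5SA and -2.25 ± 0.66 in YAP5SA_MEF2A. Without Control 1 and Control 2, which enter these values through the batch term, they were -1.13 ± 0.43 and -1.63 ± 0.53. YAP5SA against MEF2A was -0.67 ± 0.41 within batch 1, -2.01 ± 0.74 within batch 2 and -0.64 ± 0.47 without Control 1, Control 2 and YAP5SA 3.

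The summed level of 15 endothelial and endocardial markers moved with Rbp7. It was 782 and 1041 CPM in Control 1 and 2, 404 to 531 CPM in Control 3 to 5, 493 to 575 CPM in MEF2A, 305 to 436 CPM in YAP5SA and 370.0 to 408 CPM in YAP5SA_MEF2A, and none of the 15 was at 0 in all libraries. In YAP5SA against Control 4 of the 15 fell and none rose, where 4.17% of all genes were called lower. Among the 4 were the receptor kinase gene Tek (-1.13 ± 0.25, edgeR quasi-likelihood test, Benjamini-Hochberg adjusted p = 0.00799) and Egfl7 (-1.08 ± 0.23, adjusted p = 0.00603). Both calls were lost under 4 of 29 alternatives, with library totals, without YAP5SA 3, and without Control 1 and 2 with or without YAP5SA 3. The gene most like Rbp7 over the 14 libraries was Esam, an adhesion molecule of endothelial cells (Pearson's r = 0.95, as a description). Over libraries with group means but not batch removed, Rbp7 correlated with the mitochondrial share at r = 0.68 and with the log2 total count at r = -0.77. Control 1 and 2 were highest in both Rbp7 and mitochondrial share. In MEF2A, MEF2A 4 (23.2%) was also highest in both (8.02 CPM). Within YAP5SA the order was reversed, with YAP5SA 3 (32.2%) at 1.80 CPM and YAP5SA 1 (3.80%) at 5.63 CPM, as it was within YAP5SA_MEF2A. The part of endothelial markers, mitochondrial share and total count in the level of Rbp7 was not tested.

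Markers of T lymphocytes, where Bcl11b is known, were also summed, with Ptprc, a gene of leukocytes in general, in the list. Their sum over 14 genes ran from 10.6 to 35.1 CPM in Control, from 11.4 to 15.2 CPM in MEF2A and from 12.4 to 12.9 CPM in YAP5SA_MEF2A, and was 39.0, 9.64 and 98.7 CPM in YAP5SA 1 to 3. It was highest in YAP5SA 3 and next in YAP5SA 1. The T cell receptor subunit genes Cd3e, Cd3d and Cd3g were near 0, at means of 0.662, 0.267 and 0.288 CPM over all libraries, and 0 of 11 tested markers of this list were called in YAP5SA against Control (1 at an unadjusted p under 0.05). Markers of neurons and Schwann cells, where Phf24, Bcl11b and Atp2b2 are also known, summed to 34.9 to 68.9 CPM in Control, 51.5 to 58.8 in MEF2A, 10.1 to 43.6 in YAP5SA and 39.0 to 48.9 in YAP5SA_MEF2A, with 0 of 7 tested called (1 at an unadjusted p under 0.05). The part of T lymphocyte, neuron and Schwann cell markers in these genes was not tested. Macrophage markers reached 734 CPM in YAP5SA 3, against 49.2 to 161 CPM in the 13 other libraries.

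**Figure D2:**
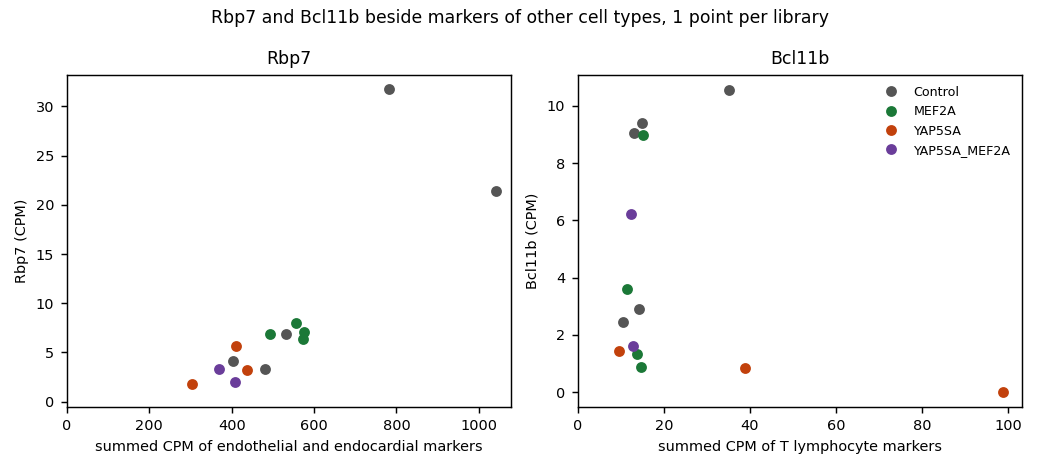
Rbp7 against the summed CPM of endothelial and endocardial markers (left) and Bcl11b against that of T lymphocyte markers (right), 1 point per library, coloured by group. Control 1 and 2 lie apart at the upper right of the Rbp7 plot, and YAP5SA 3 lies at the right of the Bcl11b plot, with 98.7 CPM of T lymphocyte markers.

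Abcb4 encodes the transporter that moves phosphatidylcholine into bile in the liver (ENSMUSG00000042476, chromosome 5, 8893717 to 8959231). It had 19.3, 11.5, 3.30, 18.4 and 14.02 CPM in Control 1 to 5, 22.6, 39.3, 38.7 and 37.6 CPM in MEF2A 1 to 4, 3.79, 3.83 and 6.47 CPM in YAP5SA 1 to 3 and 2.37 and 4.18 CPM in YAP5SA_MEF2A 1 and 2. MEF2A was highest (34.6 ± 7.98 CPM, SD, n = 4), then Control (13.3 ± 6.42, n = 5), YAP5SA (4.70 ± 1.53, n = 3) and YAP5SA_MEF2A (3.27 ± 1.28, n = 2). Control 3 alone kept the libraries with and without YAP5SA from separating, and the 2 groups with YAP5SA overlapped. The difference was larger against MEF2A (-2.87 ± 0.49 in YAP5SA and -3.33 ± 0.62 in YAP5SA_MEF2A) than against Control (-1.48 ± 0.46 and -1.95 ± 0.57), and these comparisons share libraries. Within batches, YAP5SA against Control was -2.06 ± 0.43 in batch 1 and -0.88 ± 0.92 in batch 2.

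Across the 4 comparisons that chose the genes, all 9 had a lower fitted level with YAP5SA in each. Called lower were 7 of 9 (not Abcb4 and Atp2b2) in YAP5SA against Control, where 4.17% of all genes were, and 8 of 9 in YAP5SA against MEF2A, where 7.12% were. Called lower were 3 of 9 in YAP5SA_MEF2A against Control (0.195% of all genes) and 5 of 9 in YAP5SA_MEF2A against MEF2A (0.706%). Nothing is read from these counts, since the comparisons were used to choose. The median log2 fold change of the 9 was -3.07, -2.85, -2.41 and -2.25 in that order, with medians of 0.06, 0.08, 0.01 and 0.05 over all genes. With libraries scaled by their totals in place of TMM factors, the median of all genes in YAP5SA against Control moved from 0.06 to 0.69 and that of the 9 to -2.31. Under that scaling far fewer genes were called lower, 33 in place of 750 in YAP5SA against Control (1703 higher in place of 1023) and 79 in place of 1281 against MEF2A. In YAP5SA_MEF2A they were 0 in place of 35 against Control (412 higher in place of 209) and 3 in place of 127 against MEF2A. The comparisons share Control, MEF2A or YAP5SA libraries and are not independent of each other.

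Called falls were ranked only for genes with a mean log2 CPM of at least 1 and no clone or provisional symbol. Every library of the YAP5SA-treated group also had to lie below the mean log2 CPM of the other group in the same batch. In YAP5SA against Control this left 665 of the 750 genes called lower. Near the edge of the choice, Rnft2 was the fifth largest of these falls (-3.07), and Srrm4 (-2.94), Prr29 (-2.88) and Syt7 (-2.77) came next. The 9 genes are not all genes with such falls. Kcnip2 (-3.59) and Srrm4 (-3.23) also ranked among the 5 largest falls in YAP5SA against MEF2A, Tesc (-2.23) and Upp1 (-2.11) in YAP5SA_MEF2A against Control, and Cuzd1 (-3.16) in YAP5SA_MEF2A against MEF2A. In those 3 comparisons the first genes past rank 5 were Cuzd1 (-3.16), Tnnt1 (-1.96) and Xirp2 (-2.26).

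**Figure D3:**
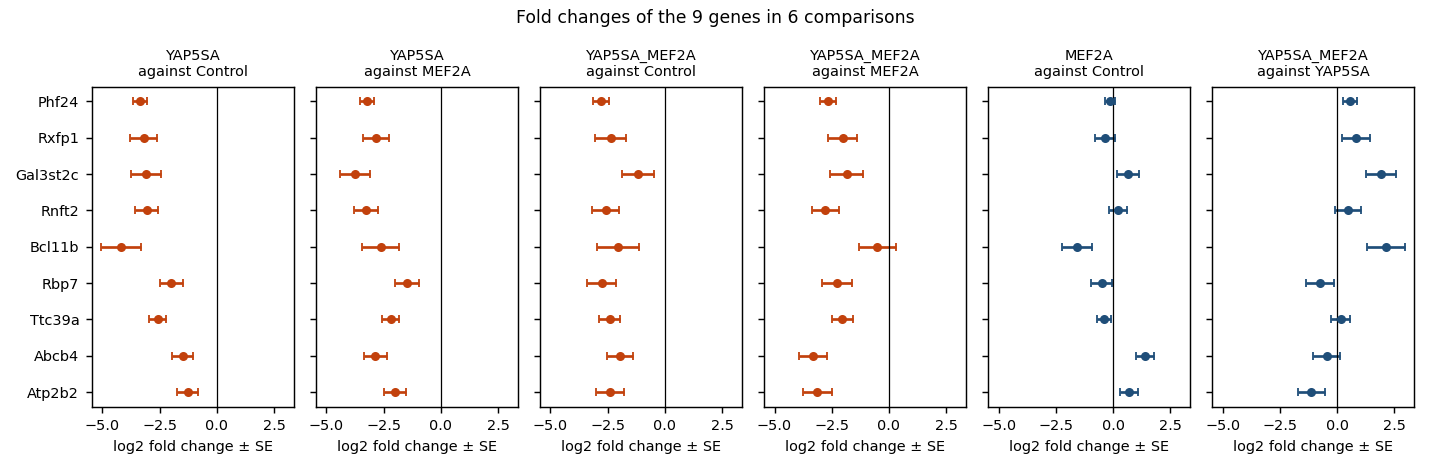
Log2 fold change ± SE of each gene in 6 comparisons, with the 4 that chose the genes in orange and the 2 that did not in blue. All points of the first 4 panels lie below 0, and in the last 2 panels they fall on both sides of it.

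The 2 remaining comparisons did not choose the genes, though their libraries took part in the choice, which favours some directions in them. Bcl11b, Rxfp1 and Gal3st2c were taken for low YAP5SA levels, which favours a rise in YAP5SA_MEF2A against YAP5SA. Gal3st2c also had the largest ranked fall in YAP5SA against MEF2A, which favours a rise in MEF2A against Control. Bcl11b, Rxfp1, Rbp7 and Ttc39a were taken against Control, where high Control levels favour a fall in MEF2A against Control. For Rbp7 and Ttc39a, low YAP5SA_MEF2A levels in the choice also favour a fall in YAP5SA_MEF2A against YAP5SA. Abcb4 and Atp2b2 were taken for high MEF2A and low YAP5SA_MEF2A levels, which favours a rise in MEF2A against Control and a fall in YAP5SA_MEF2A against YAP5SA. The p-values, adjusted or not, and the separations below do not allow for this. MEF2A against Control asks whether MEF2A alone moves these genes. None of the 9 was called by edgeR's quasi-likelihood test, and 2 had an unadjusted p under 0.05, where 0.0167% of all genes (3) were called. DESeq2 and limma-voom also called 0 of 9, while Abcb4 passed with no filter on low counts and Rbp7 in batch 1 alone. Abcb4 differed the most in the upward direction, at 1.38 ± 0.39 (unadjusted p = 0.00275, adjusted p = 0.576), with all 4 MEF2A libraries above all 5 Controls, and it was 0.97 ± 0.41 within batch 1 and 1.70 ± 0.67 within batch 2. Gal3st2c also had all 4 MEF2A libraries above all 5 Controls, at 0.65 ± 0.48 (adjusted p = 0.804), and 0.35 ± 0.49 and 0.91 ± 0.36 within the batches. Such a separation was seen in 1.88% of all genes. Atp2b2 was at 0.72 ± 0.40 (adjusted p = 0.733), with 3 of 4 MEF2A libraries above all Controls.

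Bcl11b had a log2 fold change of -1.56 ± 0.66 in MEF2A against Control (unadjusted p = 0.0297, adjusted p = 0.647), -0.70 ± 0.67 within batch 1 and -2.10 ± 0.80 within batch 2. Rbp7 was at -0.50 ± 0.44 (adjusted p = 0.850) over both batches, but at -1.96 ± 0.41 within batch 1 (adjusted p = 0.0427) and 0.61 ± 0.48 within batch 2 (adjusted p = 0.923), so its direction did not hold within batches. Rxfp1 was at -0.35 ± 0.45, and at 0.29 ± 0.40 and -0.69 ± 0.35 within batches 1 and 2. Rnft2 was at 0.20 ± 0.39, and at 0.47 ± 0.61 and -0.03 ± 0.35. Phf24 (-0.13 ± 0.23) and Ttc39a (-0.39 ± 0.30) kept 1 direction within both batches. The 95% interval of the Phf24 difference ran from -0.58 to 0.32.

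YAP5SA_MEF2A against YAP5SA asks whether MEF2A given with YAP5SA moves the genes from their level with YAP5SA alone. By edgeR 0 of 9 were called, with 0 of all 17987 genes (0%) called in this comparison, and 2 of the 9 had an unadjusted p under 0.05. DESeq2 and limma-voom again called 0 of 9, while Gal3st2c passed with no filter and without YAP5SA 2. Gal3st2c was 1.91 ± 0.67 higher on the log2 scale (unadjusted p = 0.0120, adjusted p = 1), with both YAP5SA_MEF2A libraries above all 3 YAP5SA libraries. It was 1.44 ± 0.51 within batch 1 and 3.15 ± 0.60 without YAP5SA 2. Bcl11b was at 2.13 ± 0.84 (unadjusted p = 0.0217, adjusted p = 1), also with both libraries above all 3, and at 1.77 ± 0.71 within batch 1. It was 0.87 ± 0.99 without YAP5SA_MEF2A 1, the higher of its 2 libraries, and 2.81 ± 0.92 without YAP5SA_MEF2A 2. Atp2b2 went the other way, at -1.13 ± 0.59 (unadjusted p = 0.0720), with both libraries below all 3, and -1.15 ± 0.72 within batch 1. The share of all genes in which 2 libraries lie above or below 3 in this way was not counted, so nothing is read from these separations. The other 6 lay between -0.75 ± 0.61 (Rbp7) and 0.82 ± 0.60 (Rxfp1). All 3 YAP5SA libraries were male and both YAP5SA_MEF2A libraries female, by Xist and Y-linked transcripts. Control had 2 female and 3 male libraries and MEF2A had 3 female and 1 male, so sex was unevenly spread in the other comparisons too. Sex and group thus cannot be told apart in YAP5SA_MEF2A against YAP5SA. A term for sex is estimated from Control and MEF2A libraries alone and is assumed to be the same with YAP5SA. With it, YAP5SA_MEF2A against YAP5SA was 1.83 ± 0.87 for Gal3st2c, 1.30 ± 1.02 for Bcl11b and -1.27 ± 0.74 for Atp2b2.

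The families of the 9 genes were compared in YAP5SA against Control, where 9.86% of all genes were called in either direction. Of 27 relatives 19 had enough counts, and of these 2 rose and 1 fell. The lipid-binding protein gene Fabp3, a relative of Rbp7 that carries fatty acids in heart muscle, fell by 1.02 ± 0.19 (adjusted p = 0.00297). Rnft1, the listed relative of Rnft2, rose by 0.79 ± 0.17 (adjusted p = 0.00841), and Atp2b1, the broadly expressed calcium pump of the Atp2b2 family, rose by 0.93 ± 0.20 (adjusted p = 0.00669). The Fabp3 call was lost with library totals, with batch 2 alone and without Control 1, Control 2 and YAP5SA 3. The Rnft1 call was lost under 5 of 29 alternatives, without YAP5SA 3 among them, and the Atp2b1 call under 4, without YAP5SA 1 among them. Both were lost with only the 2 groups, in batch 1 alone and without Control 1, Control 2 and YAP5SA 3, and that of Rnft1 also with the replicate block.

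The other relatives tested did not pass, with 8 of the 19 at an unadjusted p under 0.05. Ttc39b was at 0.00 ± 0.29 (adjusted p = 0.996) and Ttc39c at -0.84 ± 0.31 (adjusted p = 0.0921), beside -2.58 for Ttc39a. Bcl11a was at -1.30 ± 0.89 (adjusted p = 0.393) beside -4.19 for Bcl11b. Abcb1b, a multidrug transporter next to Abcb4 on chromosome 5, was at 2.00 ± 0.68 (adjusted p = 0.0735) and passed under 6 of 29 alternatives, DESeq2 and limma-voom among them, and Abcb1a at -0.07 ± 0.84. Atp2b4 was at -0.60 ± 0.22 (adjusted p = 0.0979). Fabp4 was at -1.21 ± 0.67 and Fabp5 at -0.79 ± 0.34. Gal3st2b, also the nearest tested gene on 1 side of Gal3st2c, was at -0.94 ± 0.77 (adjusted p = 0.490), and Gal3st1, Gal3st2, Gal3st3, Crabp2, Atp2b3 and Abcb11 had means of 1.14 CPM or less, with SEs of 1.32 to 2.59. The relaxin family receptors Rxfp2, Rxfp3 and Rxfp4 were near 0 and not tested, so Rxfp1 was the one receptor of its list that was measured.

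**Figure D4:**
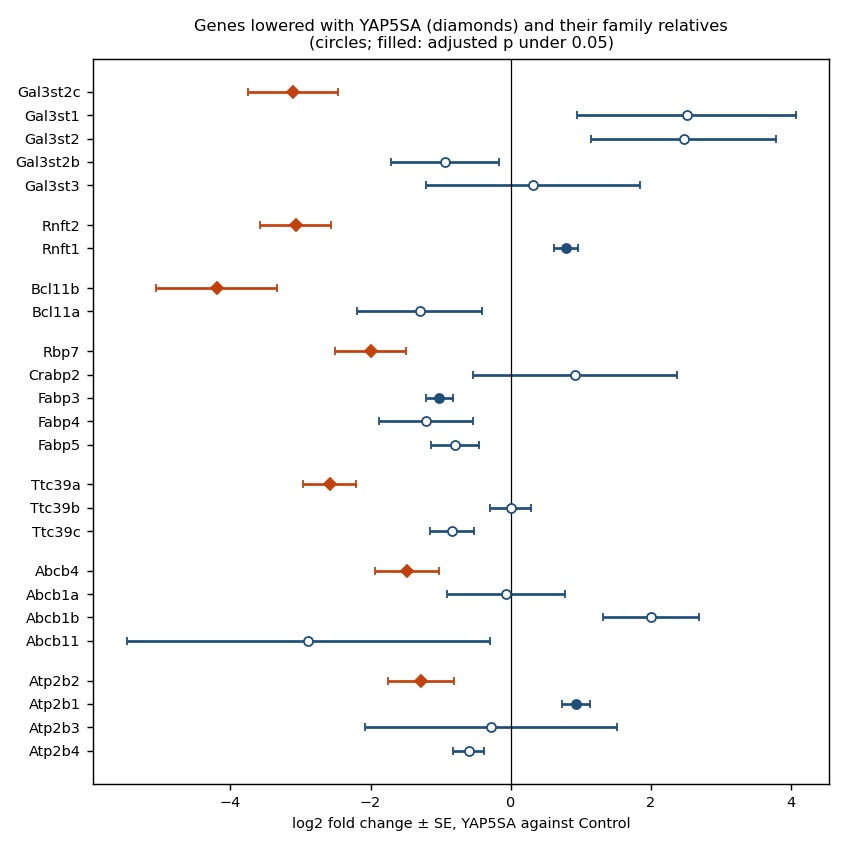
Log2 fold change ± SE in YAP5SA against Control of 7 of the genes (diamonds) and of tested family relatives (circles, filled where the adjusted p was under 0.05). Of the filled circles Rnft1 and Atp2b1 lie to the right of 0 and Fabp3 to the left, and the diamonds are values that chose the genes.

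Genes beside the 9 on the chromosome were tested in the same comparison, taking the nearest tested protein-coding gene on each side. Of these 18 neighbours 1 rose and none fell, with 4 at an unadjusted p under 0.05. The neighbour that rose was Eps15, an endocytosis gene 18.8 kb from Ttc39a (0.87 ± 0.20, adjusted p = 0.0116), and this call was lost under 7 of 29 alternatives. These were leaving out YAP5SA 1 or YAP5SA 3, either batch alone, only the 2 groups, the replicate block, and leaving out Control 1, Control 2 and YAP5SA 3 together. Closest of all was 2410131K14Rik, 110 bases from Rnft2, at -0.85 ± 0.46 (adjusted p = 0.268). Dnajb5, 5.06 kb from Phf24, was at -0.62 ± 0.22 (adjusted p = 0.0831), and Fbxw8 beside Rnft2 at 0.77 ± 0.27 (adjusted p = 0.0748). Crot beside Abcb4 was at -0.56 ± 0.29 and Sec13 beside Atp2b2 at 0.25 ± 0.18. The remaining neighbours (Ccl21a, 4930579G24Rik, Tmem144, Fam174a, Vrk1, Setd3, Ube4b, Nmnat1, Rnf11 and Atg7) lay between -0.90 and 0.83 and were not called. The median over the 18 was -0.06.

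Genes of the pathways the 9 work in were then read in YAP5SA against Control. Of 176 listed genes 159 were tested, 11 rose and 8 fell, with a median of 0.15 beside 0.06 over all genes. Of all 17987 genes tested, 1023 rose and 750 fell, 9.86% together. The lists were not tested as sets, so nothing is read from the counts per list below. Around Rxfp1, 3 of 20 relaxin and cyclic AMP genes fell and none rose. These were the phosphodiesterases Pde4a (-0.92 ± 0.23, adjusted p = 0.0160) and Pde3a (-0.87 ± 0.24, adjusted p = 0.0306), which break down cyclic AMP, and the adenylyl cyclase Adcy4 (-0.81 ± 0.25, adjusted p = 0.0451), which makes it. The Adcy4 call was lost under 17 of 29 alternatives, the Pde3a call under 10 and the Pde4a call under 6, among them leaving out YAP5SA 1 for each of the 3.

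Around Rbp7, 1 of 16 retinoid genes rose and 1 fell. The retinoid X receptor gene Rxrg fell by 2.18 ± 0.39 (adjusted p = 0.00267), while Rxra was at -0.32 ± 0.27 and Rxrb at -0.31 ± 0.16. The retinol dehydrogenase gene Rdh11 rose by 2.95 ± 0.84 (adjusted p = 0.0340), a call lost under 9 of 29 alternatives, among them without Control 1, YAP5SA 1, YAP5SA 3 or YAP5SA_MEF2A 1. Around Bcl11b, 2 of 36 NuRD and BAF subunits rose and 3 fell. Chd4, the remodelling ATPase of NuRD, fell by 1.02 ± 0.25 (adjusted p = 0.0150) and Smarca4, an ATPase of BAF, by 0.67 ± 0.17 (adjusted p = 0.0195), while Smarcc2 rose by 0.71 ± 0.19 (adjusted p = 0.0238). The calls of Chd4, Smarca4 and Smarcc2 were lost under 7, 8 and 8 of 29 alternatives, among them without YAP5SA 1 or YAP5SA 3 and, for Smarcc2, without Control 1, and with library totals Smarca4 and Rbbp7 turned to the other direction.

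Around Rnft2, 4 of 24 genes of ER-associated degradation rose and none fell. Derl1, a channel component, rose by 0.90 ± 0.17 (adjusted p = 0.00353), and Ufd1, a cofactor of the extracting ATPase, by 0.77 ± 0.18 (adjusted p = 0.0122). The Ufd1 call was lost under 6 of 29 alternatives, among them without YAP5SA 1 or YAP5SA 3, and that of Derl1 with Control 1, Control 2 and YAP5SA 3 left out together. Around Atp2b2, 2 of 16 genes of calcium extrusion rose, Bsg, a subunit of these pumps (0.72 ± 0.19, adjusted p = 0.0200), and the exchanger Slc24a3 (1.52 ± 0.45, adjusted p = 0.0403). The Bsg call was lost under 9 of 29 alternatives, among them without Control 2, YAP5SA 1 or YAP5SA 3, and the Slc24a3 call under 19. Around Abcb4, 1 of 21 phospholipid and sterol transporters fell, the flippase Atp8a1 (-1.13 ± 0.20, adjusted p = 0.00200), and 1 rose, Abca5 (1.32 ± 0.31, adjusted p = 0.0117), which was not called under 4 of 29 alternatives, among them without YAP5SA 1 or YAP5SA 3. The Atp8a1 call was lost under 2, with library totals and without Control 1, Control 2 and YAP5SA 3.

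Around Gal3st2c, 1 of 12 genes of glycolipid sulfation rose, Papss2, which makes the sulfate donor (2.30 ± 0.59, adjusted p = 0.0243), and its call was lost under 6 of 29 alternatives, among them without Control 4, YAP5SA 1 or YAP5SA 3. Around Phf24, 0 of 14 genes for inhibitory G proteins, the GABA-B receptor and GIRK channels were called by edgeR, with 4 at an unadjusted p under 0.05. The most abundant of them, Gabbr1, a GABA-B receptor subunit, was at 0.55 ± 0.18 (adjusted p = 0.0582) and Gnai2 at 0.59 ± 0.24 (adjusted p = 0.135). Without Control 1, Control 2 and YAP5SA 3, 1 of the 159 pathway genes (Abca5) and 0 of the relatives, neighbours and markers were called by edgeR in YAP5SA against Control, with 5, 2 and 11 at an unadjusted p under 0.05. In MEF2A against Control edgeR called 0 of these 159 pathway genes, with 4 at an unadjusted p under 0.05.

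Among cell type markers, 3 of 82 tested rose and 8 fell in YAP5SA against Control, where 9.86% of all genes were called in either direction. The cardiomyocyte genes Ttn (-1.55 ± 0.28, adjusted p = 0.00200) and Tnni3 (-1.14 ± 0.28, adjusted p = 0.0156) were among 4 of 12 that fell, beside -1.28 (Atp2b2) to -4.19 (Bcl11b) for the 9 genes. The smooth muscle actin gene Acta2 rose by 3.03 ± 0.52 (adjusted p = 0.00511), the macrophage gene Mrc1 by 1.80 ± 0.44 (adjusted p = 0.0221) and Lbh by 1.16 ± 0.29 (adjusted p = 0.0201), and these calls were lost under 3, 8 and 6 of 29 alternatives, without YAP5SA 3 for all. The Tnni3 call was lost under 7, among them without Control 1, YAP5SA 1 or YAP5SA 3, and the Ttn call under 2, one of them library totals. Atrial markers, of interest because Rxfp1 is known from the atria, summed to 702 to 939.6 CPM in Control, 375 to 923 in MEF2A, 408 to 872 in YAP5SA and 565 to 760.1 in YAP5SA_MEF2A, and 0 of 8 were called, with 2 at an unadjusted p under 0.05. The part of these markers in the level of Rxfp1 was not tested.

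The 9 genes did not vary as 1 block among libraries of the same group. Over all 14 libraries the 36 pairs had a median Pearson's r of 0.70 (0.18 to 0.95), which the choice of the genes favours. With group means removed the median was 0.21, from -0.46 (Rnft2 and Rbp7) to 0.80 (Rxfp1 and Ttc39a), and 29 of 36 were above 0. Rxfp1, Gal3st2c, Ttc39a and Bcl11b were most alike, with r of 0.77 between Rxfp1 and Gal3st2c, 0.68 between Rxfp1 and Bcl11b and 0.63 between Gal3st2c and Ttc39a. Rnft2 was closer to Ttc39a (0.65) and Atp2b2 (0.62). These correlations share library depth and composition and are a description.

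**Figure D5:**
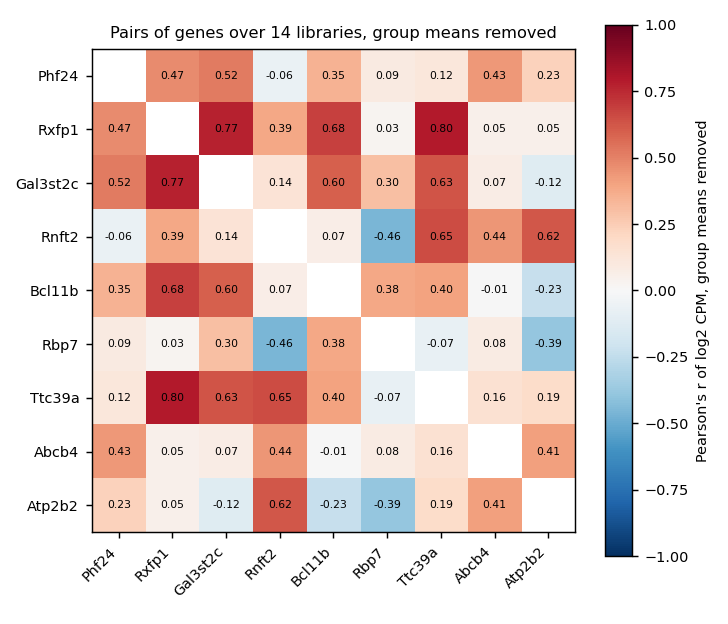
Pearson's r of log2 CPM for each pair of the 9 genes over 14 libraries after removing group means, from blue (negative) to red (positive). Rxfp1, Gal3st2c, Bcl11b and Ttc39a form the reddest block, and Rbp7 has negative values with Rnft2 (-0.46) and Atp2b2 (-0.39).

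The genes most like each member over all 14 libraries were searched among 11155 genes with a mean log2 CPM of at least 1. High r over all libraries is favoured by the choice of the genes, for any gene that also differs between groups. With group means removed, r for the genes named here ran from 0.40 (Phf24 and Celsr1) to 0.97 (Gal3st2c and Fam19a3). Phf24 was most like Celsr1 (r = 0.97), Tnnt1, the slow skeletal troponin T (0.96), and Spata7 (0.95). With group means removed, these were at 0.40 for Celsr1, 0.46 for Tnnt1 and 0.76 for Spata7. Tnnt1 was also nearest to Ttc39a (0.97) and followed for Rnft2 (0.95), after Eef1a2 (0.96) and Ints6l (0.95). Ttc39a was followed by Odf2l (0.97) and Pradc1 (0.95). Rxfp1 was most like Slc47a1 (0.95), Ttc39a (0.95) and Fam19a3 (0.94). Fam19a3 led for Gal3st2c too (0.98, and 0.97 with group means removed), before Atf7ip (0.97) and Tet1 (0.96). Abcb4 was most like Dysf (0.93), Slc25a37 (0.91) and Cuzd1 (0.90), Atp2b2 like Ndufa10 (0.95), Plekho1 (0.91) and Swt1 (0.90), and Bcl11b like C87436 (0.90), Nr2f1 (0.87) and Ephb4 (0.87). Rbp7 followed Esam, Vps8 (0.90) and Nrp1 (0.89), and Esam and Nrp1 are known from endothelium.

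Per length of exon, the 9 genes spanned a wide range of levels in Control. Rbp7 (18.8 ± 17.5 CPM per kb, SD, n = 5), Phf24 (15.2 ± 3.97) and Rxfp1 (10.7 ± 3.12) had the highest means, with overlapping spreads. The mean of Rbp7 leads through Control 1 and 2 (44.2 and 29.8), and the 3 other Controls were at 9.55, 5.81 and 4.67 CPM per kb, below the mean of Rxfp1. Ttc39a (8.79 ± 1.88) and Rnft2 (7.05 ± 2.48) followed and did not differ beyond their spread. Abcb4 (1.42 ± 0.684), Gal3st2c (1.30 ± 0.335) and Bcl11b (0.847 ± 0.478) formed a lower tier within each other's spread, above Atp2b2. In YAP5SA the order was led by Rbp7 (4.94 ± 2.70, n = 3), then Ttc39a (1.57 ± 1.12), Phf24 (1.51 ± 0.618) and Rxfp1 (1.45 ± 1.15). The lowest levels there were Gal3st2c (0.182 ± 0.198), Atp2b2 (0.122 ± 0.0230) and Bcl11b (0.0951 ± 0.0901).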

How the data were processed

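Nuclear RNA of 14 libraries was read as whole-number counts per gene, as the authors deposited them, not normalized. STAR, limma and edgeR, with build GRCm38, are named in the submitters' processing notes. No version, counting program or strand choice is given in the sources used here. Symbols and coordinates came from GENCODE vM21 by gene ID. Groups and batches came from the labels. No 2 libraries were identical (0 pairs).

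In R 4.3.3 with edgeR 4.0.16, genes were kept by filterByExpr (minimum count 10, total 15), scaled by TMM and fitted with group and batch over all 14 libraries. The quasi-likelihood F-test was two-sided, at a Benjamini-Hochberg adjusted p of 0.05 over 17987 genes. The biological coefficient of variation was 0.503. An SE is the fold change divided by the square root of F. CPM uses TMM-scaled totals, and log2 CPM a prior count of 2. Scripts were tested on simulated data.

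The 9 genes and all gene lists were chosen with earlier results of these data known. Named were the 9 genes, Yap1, Mef2a, the tested relatives (1 is not reported here) and neighbours, up to 2 genes per list (more where few were called, chosen after their values were seen), the 3 genes most like each, and genes at the edge of the choice. Alternatives included DESeq2 1.42.0, limma-voom (limma 3.58.1), other scalings and filters, single batches and left-out libraries. Same-numbered libraries did not deviate together, so replicate numbers were not used as pairs.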

Additional observations from a re-analysis of the deposited data

Results flagged for a closer look

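In groups of 4 or 5 libraries, 1 library lay far from the others in 4 of 26 cases checked, where chance gives about 1 in 20. MEF2A 4 had 24.1 CPM of Gal3st2c, with the next MEF2A library at 18.9. MEF2A 1 had 22.6 CPM of Abcb4 (nearest 37.6) and 2.89 CPM of Atp2b2 (nearest 7.49), so it was low in both transporter genes. Control 1 had 23.0 CPM of Eps15, the neighbour of Ttc39a, with the nearest Control at 19.6.

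Of the 9 genes, 6 had fitted differences of opposite sign in MEF2A against Control and in YAP5SA_MEF2A against YAP5SA. They were Bcl11b (-1.56 and 2.13), Abcb4 (1.38 and -0.46), Atp2b2 (0.72 and -1.13), Rxfp1 (-0.35 and 0.82), Phf24 (-0.13 and 0.57) and Ttc39a (-0.39 and 0.16). In Ttc39a all 4 MEF2A libraries lay below the mean log2 level of Control and both YAP5SA_MEF2A libraries above that of YAP5SA, and in Abcb4 the reverse. None of the 9 was called in either comparison, and the difference between these effects was not tested. The choice of the genes favours such signs. A gene taken for high Control and low YAP5SA levels, as Bcl11b, tends to show them. So does a gene taken for high MEF2A and low YAP5SA_MEF2A levels, as Abcb4 and Atp2b2. The share of all genes with opposite signs was not counted, so nothing is read from the 6.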

How the results depend on the processing

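Over all alternatives run, the 9 genes stayed lower in each comparison with YAP5SA except Bcl11b in YAP5SA_MEF2A against MEF2A, which was at 0.11 with library totals, 0.088 without the batch term, and -1.78 to 0.17 with single libraries left out (above 0 without MEF2A 2 or YAP5SA_MEF2A 2). The median of the 9 in YAP5SA against Control was -2.31 with library totals, -2.49 without Control 1, Control 2 and YAP5SA 3, and -3.29 to -2.34 with single libraries left out (-3.16 to -2.29 against MEF2A). With library totals it was -1.63 in YAP5SA_MEF2A against Control and -1.49 against MEF2A. With a sex term the median was -2.76 in YAP5SA against Control and -2.30 in YAP5SA against MEF2A. In the latter, Rxfp1 moved from -2.85 to -2.18 and Rbp7 from -1.50 to -2.30. What counts as a moved median was set, after values were seen, as 1 SD between libraries pooled over groups (0.552).

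Members called in MEF2A against Control were 1 with no filter (Abcb4) and 1 in batch 1 alone (Rbp7). In YAP5SA_MEF2A against YAP5SA, Gal3st2c was called with no filter (1) and without YAP5SA 2 (0 to 1 over single libraries). Directions in MEF2A against Control turned for Phf24 (0.024 with library totals, 0.000654 with the replicate block), Rxfp1 (0.29 in batch 1), Rnft2 (-0.030 in batch 2, -0.019 without Control 1 and 2, -0.061 without these and YAP5SA 3, -0.041 with a sex term, and -0.14 to 0.41 over single libraries, below 0 without MEF2A 2) and Rbp7 (0.61, 0.35 and 0.57 under the first 3 of these). In YAP5SA_MEF2A against YAP5SA, Ttc39a was at -0.047 with 2 groups, -0.034 in batch 1, -0.036 without Control 1, Control 2 and YAP5SA 3, -0.26 with a sex term and -0.15 to 0.97 over single libraries, below 0 without YAP5SA 1, YAP5SA 3 or YAP5SA_MEF2A 2. The sex term, estimated without the libraries of this comparison, also turned Rxfp1 (-0.11), Rnft2 (-0.28) and Rbp7 (0.53). The cause was not tested.

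In YAP5SA against Control, relatives called (3) were 5 with no filter, with DESeq2 and without Control 1 and 2, 1 with only the 2 groups, and 0 without Control 1, Control 2 and YAP5SA 3. Neighbours (1) were 3 with library totals and DESeq2, 2 with no filter, voom and without Control 1 and 2, 0 with the replicate block, the 2 groups or the 3 libraries left out, and 0 to 3 over single libraries. Pathway genes (19) were 33 with DESeq2, 7 with the replicate block, 5 with the 2 groups, 1 without the 3 libraries, and 5 to 32 over single libraries (12 without Control 1, 5 without YAP5SA 1 or 3, 32 without YAP5SA 2). Markers (11) were 29 with no filter, 23 with DESeq2, 18 with voom, 5 with the replicate block, 4 with the 2 groups, 25 in batch 2, 19 without Control 1 and 2, 0 without the 3 libraries, and 2 to 26 over single libraries (18 without Control 2, 6 without YAP5SA 1, 26 without YAP5SA 2, 2 without YAP5SA 3). The 16 same-numbered pairs correlated at -0.18 to 0.09, and 4 of 14 libraries matched their own number best, so the block shows no pairing.

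Depth limits Bcl11b, Gal3st2c and Atp2b2, with 55, 123 and 103 counts in all 3 YAP5SA libraries together.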
